A study of Mus musculus with 8 samples.

Results

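Sets of mouse embryonic stem (ES) cells that differed in interferon response genes were compared: the 4 libraries of clones 30 and 36, called interferon-high here, and the 4 libraries of clones 6 and 20, called interferon-low, which together are the 8 libraries of the series. The clones were selected on the measured levels of *Ifit1* and *Ifit3* in these same libraries, so every difference between the sets is given as a description and carries no p-value. RNA of each clone was sequenced at passage 6 (P6) and at passage 16 (P16), each passage being a replating of the culture as it grows, and the series was made to look for genes that change as ES cells are expanded. According to the sample labels all 8 libraries come from wild-type cells of strain 129S1, whereas the methods also name C57BL6 clones without saying which clones were sequenced. Each clone is 1 cell line, so a set holds n = 2 clones, and the P6 and P16 libraries of a clone were averaged before the sets were compared.

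Interferons are secreted proteins by which cells announce a viral infection. A type I interferon binds the receptor made of IFNAR1 and IFNAR2, the kinases JAK1 and TYK2 then phosphorylate STAT proteins, and these join IRF9 to form a factor that binds a DNA element called ISRE and switches on interferon-stimulated genes. ES cells are known for a weak interferon system compared with differentiated cells.

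The deposited values are read counts per gene divided by a size factor of the library, called normalized counts below. The libraries held between 21394069 and 34295561 reads on genes, and their 10 most abundant genes took between 4.56% and 4.86% of them. Of 23337 names in the table, 5080 (21.8%) stand in alphabetical runs in which a name extends another by a digit and the rows of the libraries are out of register. These were left out, and 12283 of the other 18257 names reached a mean of at least 10 normalized counts and were compared. *Pou5f1*, the defining pluripotency factor, was between 23600 and 29200 in all 8 libraries. The 4 Y-linked genes read here had 115 to 2210 normalized counts in clones 30 and 20 and 0 to 9.48 in clones 36 and 6, so each set held 1 clone of either kind. Deviations from the mean of a passage were compared between the P6 and P16 libraries of a clone over 12283 names. Pearson's r was 0.701 in clone 30, 0.433 in clone 36 and 0.271 in clone 20, each the highest with any clone, whereas in clone 6 it was 0.0956, below the 0.281 with clone 36. The P6 and P16 libraries labelled clone 6 were thus not shown by their values to be the same line, and the main results are also given without clone 6.

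*Ifit1* and *Ifit3*, neighbouring genes on chromosome 19 (GRCm38) whose proteins bind viral RNA, were the genes that chose the clones. *Ifit1* was at 1290 and 252 normalized counts in clone 30 at P6 and P16, at 82.9 and 107 in clone 36, at 30.7 and 7.02 in clone 6, and at 1.8 and 2.87 in clone 20. *Ifit3* was at 423 and 61.9 in clone 30, at 24.9 and 24.6 in clone 36, at 9.35 and 0.877 in clone 6, and at 0.901 and 0 in clone 20. The sets did not overlap for either gene, but the levels formed a gradient rather than 2 tight groups: P6 of clone 30 stood highest, clone 36 was intermediate, and P6 of clone 6 was the highest of the low set. The difference of the set means was 5.01 ± 1.72 on the log2(normalized count + 1) scale for *Ifit1* and 4.72 ± 1.57 for *Ifit3* (pooled SD of clone means, n = 2 clones per set). On this scale the differences of genes with few counts come out too small. Because RNA was taken from whole cultures, a larger share of responding cells and more RNA per cell cannot be told apart.

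To show the element that interferon signalling is known to act on, the 250 bases before the annotated start are given for *Ifit1*, *Ifit3* and *Isg15*, which are among the largest differences and hold the ISRE core, and for *Irf7*, which is also among them and does not. The sequences are from RefSeq on GRCm38.p6, 5′ to 3′ along the gene, and capitals mark matches to the ISRE core, spelled GAAANNGAAA on either strand.
Ifit1 (chr19:34640639-34640888, plus strand): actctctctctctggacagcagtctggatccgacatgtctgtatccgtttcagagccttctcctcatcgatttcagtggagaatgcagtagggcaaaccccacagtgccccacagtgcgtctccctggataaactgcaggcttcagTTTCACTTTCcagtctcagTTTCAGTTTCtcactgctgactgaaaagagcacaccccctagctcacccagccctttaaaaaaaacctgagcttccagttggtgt
Ifit3 (chr19:34583279-34583528, plus strand): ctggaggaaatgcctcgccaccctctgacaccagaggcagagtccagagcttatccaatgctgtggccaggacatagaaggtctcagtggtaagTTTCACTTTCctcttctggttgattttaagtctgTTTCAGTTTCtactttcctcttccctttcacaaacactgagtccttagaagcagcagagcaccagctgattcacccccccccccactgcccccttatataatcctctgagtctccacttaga
Isg15 (chr4:156200819-156201068, minus strand): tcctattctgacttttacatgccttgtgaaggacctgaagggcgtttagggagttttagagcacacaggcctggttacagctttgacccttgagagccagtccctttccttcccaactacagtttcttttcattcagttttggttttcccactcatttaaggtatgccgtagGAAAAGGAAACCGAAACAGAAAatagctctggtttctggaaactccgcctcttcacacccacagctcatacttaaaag
Irf7 (chr7:141266425-141266674, minus strand): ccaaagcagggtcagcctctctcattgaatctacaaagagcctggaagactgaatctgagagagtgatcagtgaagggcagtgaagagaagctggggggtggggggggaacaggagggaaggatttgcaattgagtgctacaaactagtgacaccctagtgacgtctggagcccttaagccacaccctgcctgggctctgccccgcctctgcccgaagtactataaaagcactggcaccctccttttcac
The *Ifit1* and *Ifit3* stretches hold 2 matches each, both on the opposite strand, and *Isg15* holds 3 matches that overlap in 1 run. That *Irf7* has none says only that these letters are not in this window.

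Over all names, 41 were higher in the interferon-high clones, with all 4 of their libraries above all 4 of the other set and the means at least 2-fold apart, which is 0.334% of 12283. None was lower by the same criteria (0%). The difference was lopsided also without the fold requirement, where 184 names (1.5%) lay entirely higher and 102 (0.83%) entirely lower. At least 2-fold apart regardless of overlap were 64 names higher and 9 lower, and the median difference over all names was 0.0012. Matched by the symbols in the table, 32 of the 41 names belong to the lists of interferon pathway genes and 9 do not. These counts read the contrast on which the clones were selected, and 12 of the 41 names had a mean under 10 in the interferon-low set, so that they entered through the high set alone. Among the 12 were *Mx2*, *Epsti1*, *Ifit3*, *Ifi44*, *Tgtp1*, *I830012O16Rik*, *Iigp1*, *Uba7* and *Mx1*, which include several of the largest differences. With 2 clones on each side, an exact permutation test cannot give a two-sided p below 0.333.

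**Figure D1:**
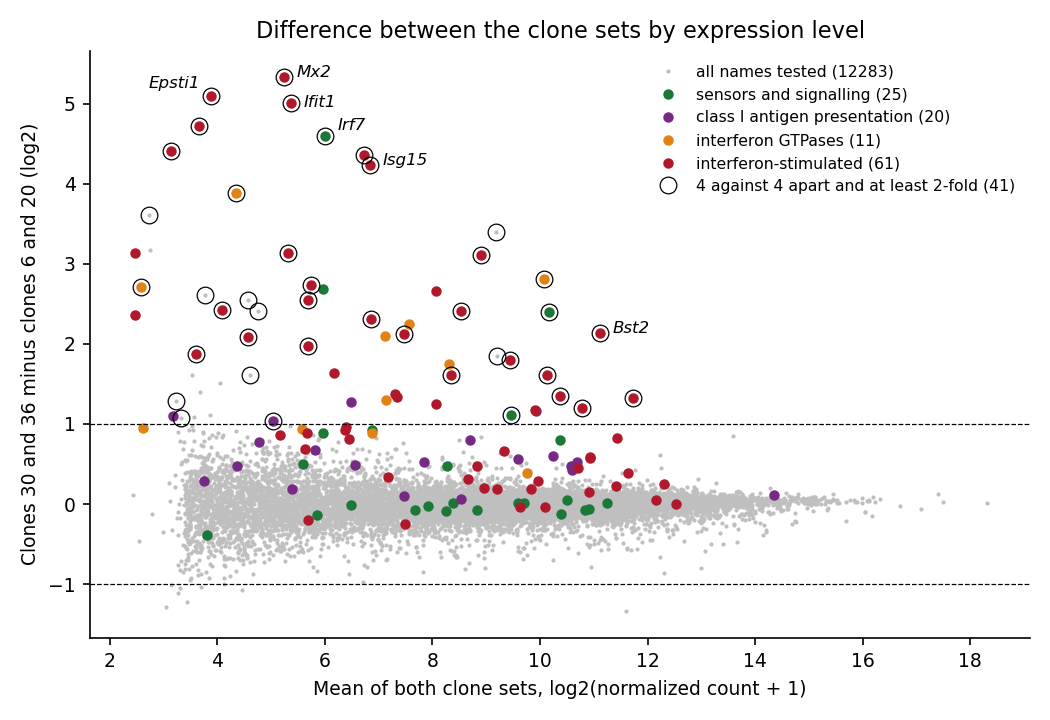
Difference between the clone sets (vertical axis, log2) against the mean level of both sets (horizontal axis, log2(normalized count + 1)) for the 12283 names tested, one point per name, with 4 gene lists in colour, the 41 called names circled and dashed lines at 2-fold. The circled names all lie above the upper line, between 1.04 and 5.33, and no name is circled below the lower line.

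The interferon-stimulated list held the bulk of the called names. Of its 83 genes, 79 are in the table under the listed symbol. Of those, 12 were in displaced runs, 6 were below the minimum and 61 were tested. Of these, 25 (41%) were called higher, 29 lay entirely higher at any fold, none lay entirely lower, and 57 had a positive and 4 a negative difference. The median difference of the 61 genes was 1.25, beside 0.0012 over all names, and 0.93 over the 53 genes with a mean of at least 10 in clones 6 and 20, a filter chosen after the data were seen. The 4 genes with a negative difference were *Ifi30* (-0.04), *Ifitm1* (-0.03), *Slfn8* (-0.20) and *Ly6a* (-0.24). The differences were thus uneven within the list, from *Mx2* at 5.33 to genes such as *Pml*, a nuclear body protein, at 0.00.

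*Mx2*, a dynamin-like antiviral GTPase on chromosome 16, had the largest difference of all names, 5.33 ± 1.79, but passed the minimum level through the high set alone. It was at 1620 and 310 normalized counts in clone 30, at 73.4 and 85.1 in clone 36, at 20 and 4.39 in clone 6, and at 0.901 and 4.78 in clone 20 (P6 before P16, here and below). Its lowest interferon-high library was 1.82 log2 above the highest interferon-low one, the widest such gap of the 41 names. *Isg15*, a ubiquitin-like protein that is attached to other proteins, was at 2710 and 809 in clone 30, at 143 and 185 in clone 36, at 114 and 13.2 in clone 6, and at 10.8 and 23.9 in clone 20. Here P6 of clone 6 came close to P6 of clone 36, and the difference of the means was 4.23 ± 1.70. *Uba7*, the activating enzyme of ISG15, was at 108 and 41.6 in clone 30, at 22.5 and 20.5 in clone 36, and between 2.7 and 13.4 in the low set, with a difference of 2.42.

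Effectors that act on viral RNA or nucleotides were among the higher names. *Rsad2*, which encodes viperin, was at 770 and 131 in clone 30 and at 34.3 and 52.3 in clone 36, against a range of 7.89 to 30.7 in the low set, a difference of 3.13 ± 1.47. Its neighbour on chromosome 12, *Cmpk2*, a nucleotide kinase, differed by 1.97, with 37.9 in P6 of clone 36 beside 37.4 in P6 of clone 6, so that the sets were only just apart. The 2'-5'-oligoadenylate synthetase family includes enzymes that make the second messenger that activates RNase L, though not every member does. Of 8 tested members *Oas2* (3.11), *Oasl1* (2.74), *Oas1b* (2.54), *Oas1a* (2.41) and *Oas1g* (2.13) were called. *Oas2* was at 2920 and 2030 in clone 30, at 814 and 819 in clone 36, at 417 and 90.3 in clone 6, and at 132 and 141 in clone 20. Every interferon-high library exceeded every interferon-low one here, with clone 30 highest at both passages. *Oas1c* (1.38), *Oasl2* (2.67) and *Oas3* (0.34) overlapped between the sets. *Oas1a* and *Oas1g* are close copies, as are *Ifit3* and the called name *I830012O16Rik* (3.60), so their reads may have been divided between copies or dropped in the counting. *Eif2ak2*, the kinase PKR that halts translation on double-stranded RNA, had a smaller difference, 1.20 ± 0.57, at 1830 to 4840 in the high set and 963 to 1580 in the low set.

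Membrane and signalling effectors completed the list. *Bst2*, the tether that holds budding virus at the cell surface, was at 11500 and 5540 in clone 30, at 2740 and 2720 in clone 36, at 2510 and 782 in clone 6, and at 786 and 826 in clone 20, a difference of 2.14 ± 0.87. It was among the most abundant called names, and again the P6 library of clone 6 lay next to clone 36. *Ifitm3*, which blocks virus entry, was between 3520 and 9750 in the high set and between 1530 and 3030 in the low set, a difference of 1.32. Its relatives *Ifitm1* and *Ifitm2* had differences of -0.03 and 0.05. *Ifi27l2a*, a small membrane protein, was at 44.3, 63.8, 43.8 and 42 in the high libraries, the least spread within that set of the called list members. In the low set it was at 38.8 in P6 of clone 6 and at 3.51 to 9.57 elsewhere. *Epsti1* (5.09), *Ifi44* (4.41), *Rtp4* (4.35), *Lgals3bp* (2.31), *Mx1* (1.88), *Lgals9* (1.80), *Tdrd7* (1.61), *Parp9* (1.61) and *Xaf1* (1.35) were the other called members. For *Ifi44* 3 of the 4 low libraries were at 0 and P6 of clone 6 was at 12, beside 147, 37.7, 34.3 and 12.3 in the high libraries. *Adar* (0.83), *Mlkl* (0.89) and *Pnpt1* (0.39) lay entirely higher at under 2-fold. *Ifit2* (0.96) lay just outside the 2-fold requirement, as did the suppressor *Socs1* (0.93) and *Arhgap20* (0.91), whereas *H2-T23* (1.04) and *Ms4a6d* (1.07) lay just inside.

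**Figure D2:**
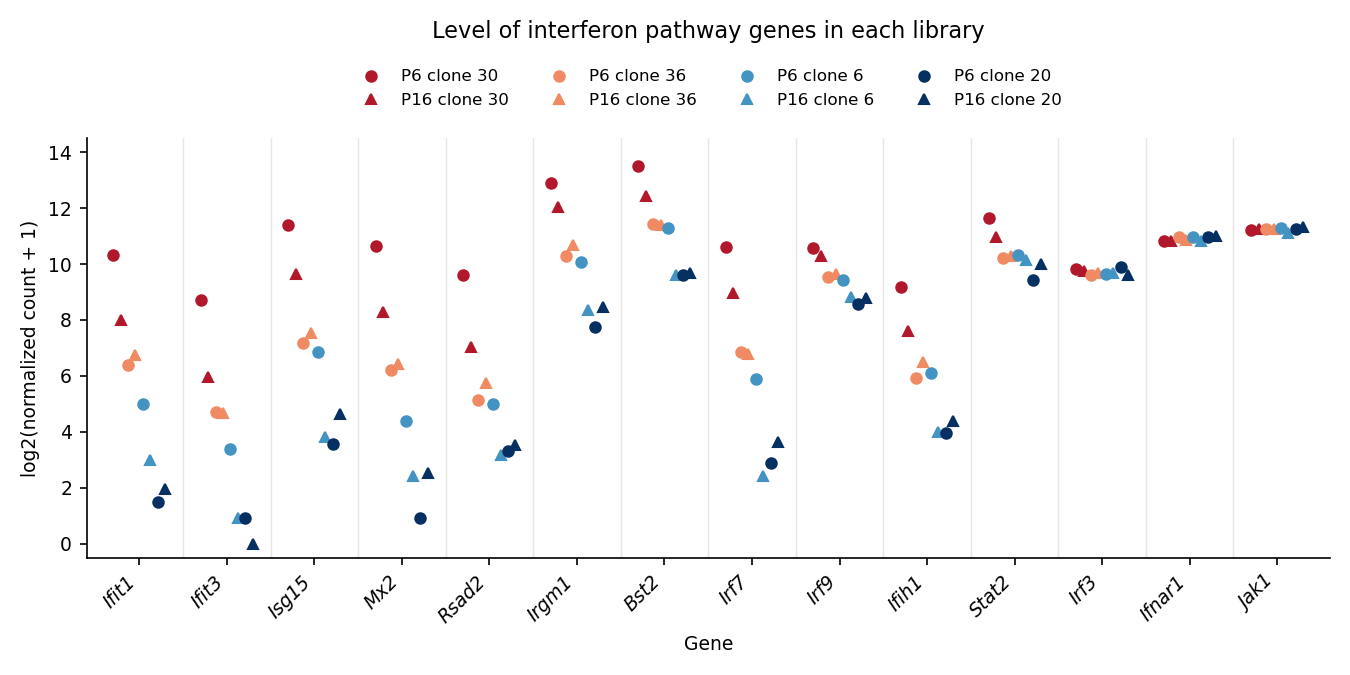
Level of 14 interferon pathway genes in each of the 8 libraries (vertical axis, log2(normalized count + 1)), with circles for P6, triangles for P16 and a colour for each clone. For *Ifit1* to *Irf9* all 4 libraries of clones 30 and 36 lie above all 4 of clones 6 and 20, *Ifih1* and *Stat2* overlap, and the 8 libraries lie together for *Irf3*, *Ifnar1* and *Jak1*.

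The interferon-inducible GTPases, which attack the vacuoles of intracellular microbes, had the highest median difference of any list. Of 17 genes 2 were displaced, 4 were below the minimum and 11 were tested, all 11 with a positive difference and a median of 1.75. That median was 3.42 between clones 30 and 20 and 0.05 between clones 36 and 6, and it became 0.61 without clone 30, 2.87 without clone 36, 1.19 without clone 20 and 1.83 without clone 6, so clone 36 by itself did not stand above clone 6 for this list. Called were *Tgtp1* (3.88), *Irgm1* (2.81) and *Iigp1* (2.70), of which *Tgtp1* and *Iigp1* passed the minimum level through the high set alone. *Irgm1* was at 7650 and 4210 in clone 30, at 1240 and 1630 in clone 36, at 1070 and 329 in clone 6, and at 213 and 354 in clone 20. For the others the sets overlapped, with at least 1 library of clone 36 below P6 of clone 6. *Igtp* was at 1290 and 510 in clone 30, 94.8 and 109 in clone 36, 118 and 133 in clone 6, and 27.9 and 43 in clone 20. The guanylate-binding proteins *Gbp3* (1.75), *Gbp7* (1.30), *Gbp6* (0.95), *Gbp4* (0.94), *Gbp9* (0.88) and *Gbp2* (0.39) also overlapped.

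Transcripts of the ligands themselves were near the limit of detection. Of the 17 ligand genes listed, 10 could be read outside the displaced runs and none reached the minimum level. *Ifnb1*, which encodes interferon beta, had 14 and 2 reads in clone 30, 4 and 1 reads in clone 36, and 0 reads in each of the 4 interferon-low libraries. Summed, 21 reads of 114877406 stood against 0 of 113842153. This is 6.94-fold higher if the low set is put at 3 reads in all, taken here as an upper limit for a count of 0. *Ifna4* had 10 and 1 reads in clone 30 and 0 in the other 6 libraries, 3.63-fold higher by the same setting. *Ifng* had 5 reads in the high and 4 in the low set, *Ifnk* 0 and 3, and *Ifna2*, *Ifna5*, *Ifna6*, *Ifnab*, *Ifne* and *Ifnz* had none in any library. These ratios allow for counting error of the low set alone and take the high count, most of it from P6 of clone 30, as exact. *Ifnb1* and *Ifna4* were read for their role and not because they passed the minimum.

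Receptors and kinases upstream of the response stood at nearly equal levels. *Ifnar1* was between 1820 and 2000 normalized counts in the high set and between 1800 and 2030 in the low set, a difference of -0.07 ± 0.06. *Ifnar2* (0.01), *Ifngr1* (-0.09) and *Ifngr2* (-0.08), the latter pair being the interferon gamma receptor, and the kinases *Jak1* (0.01) and *Tyk2* (-0.12) overlapped between the sets. *Jak2* was the 1 listed signalling gene that lay entirely lower, as did 0.83% of all names. It was at 419 to 453 against 461 to 472, a difference of -0.08. Across the list, 25 of 34 genes were tested and the median difference was 0.01. Of these, 5 (20%) lay entirely higher at any fold, beside 1.5% of all names, and 3 (12%) were called higher, beside 0.334%.

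Transcription factors that interferon itself is known to induce were among the called signalling genes. *Irf7*, the amplifier of type I interferon transcription, was at 1580 and 504 in clone 30, at 115 and 108 in clone 36, at 58.8 and 4.39 in clone 6, and at 6.31 and 11.5 in clone 20, a difference of 4.60 ± 1.56. *Irf9* was between 749 and 1530 in the high set and between 384 and 685 in the low set, a difference of 1.11 ± 0.47. *Stat2* (0.80), whose protein joins IRF9, overlapped, with 1200 in P6 of clone 36 below 1290 in P6 of clone 6. By contrast, *Irf3*, which is activated by phosphorylation and not by its level, differed by 0.01, *Irf1* by -0.02 and *Irf2* by 0.50, each with overlap.

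Sensors of viral nucleic acid were divided. *Ifih1*, which encodes the RNA sensor MDA5, was at 573 and 193 in clone 30, at 60.4 and 89.2 in clone 36, at 68.1 and 14.9 in clone 6, and at 14.4 and 20.1 in clone 20. Its difference of 2.69 was as large as that of called genes, but P6 of clone 6 exceeded P6 of clone 36. *Tlr3*, the endosomal sensor of double-stranded RNA, differed by 0.89 with overlap, and the adaptor *Myd88* by 0.47 without overlap, at 291 to 510 against 241 to 287. The adaptors *Mavs* (0.01) and *Ticam1* (-0.03) and the kinases *Tbk1* (0.04) and *Ikbke* (-0.02), which relay the signal to IRF3, overlapped.

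Class I antigen presentation, which displays peptides to cytotoxic T cells, had small differences that lay mainly with clone 30. All 20 tested genes of 24 listed had a positive difference, with a median of 0.52, and 1 (5%) was called, the non-classical class I gene *H2-T23* at 31.8 to 84.6 against 17.5 to 29.7. The median was 0.94 between clones 30 and 20 but 0.04 between clones 36 and 6, and it was 0.16 without clone 30, 0.88 without clone 36 and 0.63 without clone 6. The median level of the list in P6 of clone 36, 7.51 on the log2 scale, was below those in P6 of clone 6 (7.72) and P6 of clone 20 (7.61). *H2-D1* had a difference of 1.16 with overlap, at 2700 and 1480 in clone 30, 1050 and 1040 in clone 36, 1130 and 443 in clone 6, and 559 and 622 in clone 20. Also overlapping were the immunoproteasome subunits *Psmb8* (1.28) and *Psmb9* (0.67), the peptide transporters *Tap1* (0.80) and *Tap2* (0.48), and *B2m* (0.57), the light chain of class I molecules. Genes of the class I family are alike in sequence, so single members are uncertain.

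The 9 names outside the lists were called by the same criteria. List genes were matched by symbol alone, so a listed gene that the table holds under another symbol counts as outside. *Ifi27l1* was at 1820 and 2920 in clone 30, at 1490 and 1620 in clone 36, at 1190 and 86 in clone 6, and at 68.5 and 145 in clone 20, a difference of 3.39 ± 0.89. The others were *I830012O16Rik*, for which RefSeq gives the symbol *Ifit3b*, *H2-T24* (2.61), *Trim14* (2.54), *Hsh2d* (2.41), *BC006779* (1.85), *Alb* (1.61), *AW011738* (1.29) and *Ms4a6d* (1.07). *Alb*, the gene of serum albumin, departed from the gradient: it was at 33.7 and 46.4 in clone 30, at 37.9 and 49.2 in clone 36, and between 9.01 and 20 in the low set, so clone 36 was as high as clone 30. *Ms4a6d* was likewise highest in clone 36, at 15.4 and 16.4 beside 11.5 and 11.6 in clone 30.

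On the lower side the differences were small. The names with the most negative difference among those entirely lower in the high set were *Meg3* (-0.87), *Erdr1* (-0.78), *Cr2* (-0.74), *Car5b* (-0.69) and *Postn* (-0.69), none of them 2-fold. *Meg3*, an imprinted non-coding RNA, was at 6400 and 5840 in clone 30, at 2340 and 2210 in clone 36, and between 6430 and 7190 in clones 6 and 20. Its difference was thus almost wholly that of clone 36. *Erdr1* was between 1360 and 1750 in the high set, at 2150 and 1980 in clone 6, and at 2970 and 3490 in clone 20.

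**Figure D3:**
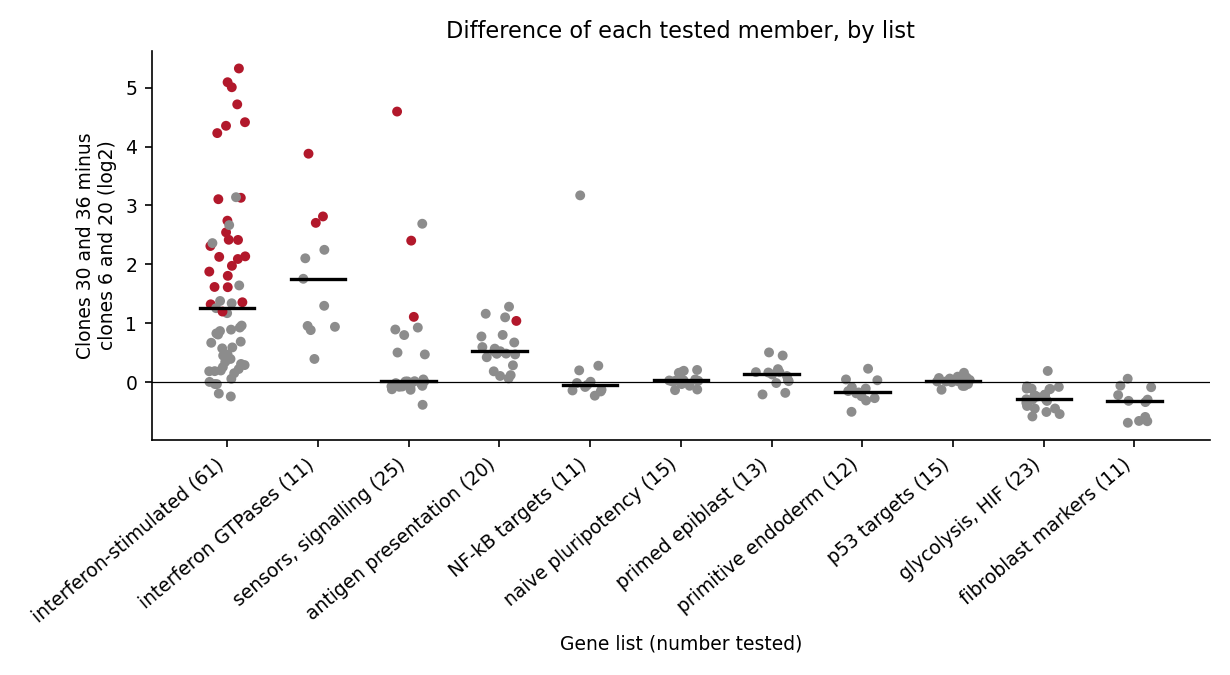
Difference between the clone sets (vertical axis, log2) of each tested member of 11 gene lists, with called members in red, the others in grey and a black bar at the median of the list. The medians are 1.25 for interferon-stimulated genes, 1.75 for interferon GTPases and 0.52 for antigen presentation, and between -0.32 and 0.13 for the other 8 lists.

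Lists of other processes held no called name. NF-kB targets, a separate arm of the antiviral response, had a median of -0.05 over 11 genes, with the chemokine *Ccl5* as the 1 member far from 0 (3.17), at 65.7, 7.74, 16.6 and 15.4 in the high libraries and at 12, 0, 0 and 0.957 in the low ones, so that P6 of clone 6 overlapped. Naive pluripotency factors had a median of 0.03 over 15 genes, with *Pou5f1* at 0.03, *Nanog* at 0.02 and *Esrrb* at 0.01. Primed epiblast genes had a median of 0.13, DNA methylation enzymes of -0.01, germline genes silenced by methylation of -0.03, two-cell-like genes of 0.14, mesendoderm genes of 0.12, trophoblast genes of -0.06, p53 targets of 0.01, cholesterol genes of -0.07 and ATF4 stress genes of -0.12. Near-equal set means did not always mean that the clones were alike. Primitive endoderm genes had a median of -0.17, made of -1.23 between clones 30 and 20 and 0.88 between clones 36 and 6. Glycolytic enzymes and HIF targets had a median of -0.29, and 22 of 23 members had a negative difference with no member apart between the sets. Their median was -0.53 between clones 30 and 20 and -0.05 between clones 36 and 6, and it was -0.04 without clone 6 and 0.11 without clone 30. In clone 20 all 23 were higher at P16 than at P6, by a median of 1.09.

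Markers of other cells were read for the same libraries. The 11 tested of 14 fibroblast markers had a median of -0.32, 10 of them negative, and *Col3a1* and *Postn* lay entirely lower in the high set. Their summed level was between 12200 and 16600 normalized counts in the high and between 12400 and 16200 in the low libraries, ranges that overlap. Of 12 immune cell markers 4 were tested, with a summed level between 263 and 344 in the high and between 263 and 373 in the low libraries. The defining leukocyte gene *Ptprc* was between 0 and 5.74 in all 8 libraries, *Lyz2* between 0 and 1.64, and *Siglech*, a marker of interferon-producing dendritic cells, between 0 and 0.967. Neither list had a positive median difference, and that of the immune markers was -0.17.

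Within the high set clone 30 stood above clone 36. Of the 41 called names, 37 were highest in P6 of clone 30 and 2 in its P16 library, and for 39 the lowest of the 4 high libraries was one of clone 36. Both clone 30 libraries exceeded both clone 36 libraries for 38 of the 41 names, with a median of 1.62 log2 between these clones of the same set. In the low set P6 of clone 6 was the highest library for 36 of the 41 names, and the gap from it or another low library to the lowest high library had a median of 0.22 log2 and was at least 1 for 3 names. Over the 61 interferon-stimulated genes, P6 of clone 36 exceeded P6 of clone 6 by a median of 0.09 (42 higher, 19 lower), whereas it exceeded P6 of clone 20 by 1.18 (54 higher, 7 lower). At P16 clone 36 exceeded clone 6 by 0.58 (48 higher, 13 lower) and clone 20 by 0.74 (55 higher, 6 lower). Clone 30 exceeded clones 6 and 20 by 1.68 and 2.59 at P6 and by 1.35 and 1.50 at P16.

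The gradient can also be described in clones matched for Y-linked transcripts. Between clones 30 and 20, which have them, the median difference of the 61 interferon-stimulated genes was 2.01, and between clones 36 and 6, which lack them, it was 0.34. Of the 41 called names, 40 differed by at least 2-fold in the former pair and 26 in the latter, with medians of 3.67 and 1.26. By passage, the median of the list was 1.36 at P6 and 1.05 at P16. Without clone 6 it was 1.51, and 127 names (81 higher, 46 lower) met the criteria of no overlap and 2-fold, 38 of them among the 41. Without clone 30 the median of the list was 0.65, and 55 names (41 higher, 14 lower) met the criteria, 32 of them among the 41. Without clone 36 the count was 232 and the median 1.78, without clone 20 it was 75 and without the P16 library of clone 6 it was 65. With fewer libraries, sets stand apart more easily.

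Among the 10 names whose level followed the mean of *Ifit1* and *Ifit3* most closely over the 8 libraries were *Bst2*, *Mx2*, *Uba7*, *Xaf1*, *Irf9*, *Irgm1*, *Hsh2d*, *Oas1g* and *Epsti1*, with Pearson's r on the log2 scale from 0.9862 to 0.9779. This is a description over 8 points that share clones. Placed on the genome, 40 of the 41 called names were spread over 14 chromosomes. Chromosome 5 held 6, among them the 5 called members of the oligoadenylate synthetase family, and chromosome 11 held 5.

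Windows of 300 bases, 250 before to 50 after the annotated start, were searched for 2 motifs. RefSeq windows were found for 26 of the 41 called names, and 14 of these (53.8%) held the ISRE core, beside 3.99% of all 27025 genes with a window and 3.39% of the tested names. The 26 names include *Ifit1* and *Ifit3*, which chose the clones, and 23 are in an interferon list. Their share is thus not independent of that choice. Among the interferon-stimulated genes that were tested but not called, 10 of 31 (32.3%) held it, and among the sensors and signalling genes not called 5 of 22 (22.7%). The GAS element, spelled TTCNNNGAA and its own reverse complement, was found in 5 of the 26 called names (19.2%). It was in 9.55% of all genes and 7.69% of the tested names. The uncalled genes held it as often or more often, in 6 of 31 (19.4%) of the interferon-stimulated and 7 of 22 (31.8%) of the sensors and signalling genes. The windows with both motifs numbered 149, and in 24 of them the matches overlapped. Called names with the most ISRE matches were *Isg15* with 3, and *Ifit1*, *Ifit3*, *Irgm1*, *Oas1a*, *Oas1g*, *Bst2*, *Lgals9* and *Ifitm3* with 2 each. *Epsti1*, *Irf7* and *Ifi44* had none. A match is a description of the letters and not a binding site.

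Whether the response held during expansion was tested on the P16 minus P6 difference within each clone, which the choice of the clones did not use. Over the 61 interferon-stimulated genes, the median change was -0.72 in clone 30, with 57 genes lower at P16, and -0.52 in clone 6, with 47 lower. In clone 36 it was 0.01, with 25 lower, and in clone 20 it was 0.21, with 16 lower. Over all names the medians lay between -0.01 and 0.00. So 1 clone of each set had lower levels at P16 and the other did not. For clone 6 this takes its P6 and P16 libraries as the same line, which their values did not show. In clone 30 the GTPases had a median change of -1.27 (11 of 11 lower) and the antigen presentation genes one of -0.85 (19 of 20 lower). The P16 minus P6 difference of *Ifit1* was -2.35 in clone 30, 0.36 in clone 36, -1.98 in clone 6 and 0.47 in clone 20.

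**Figure D4:**
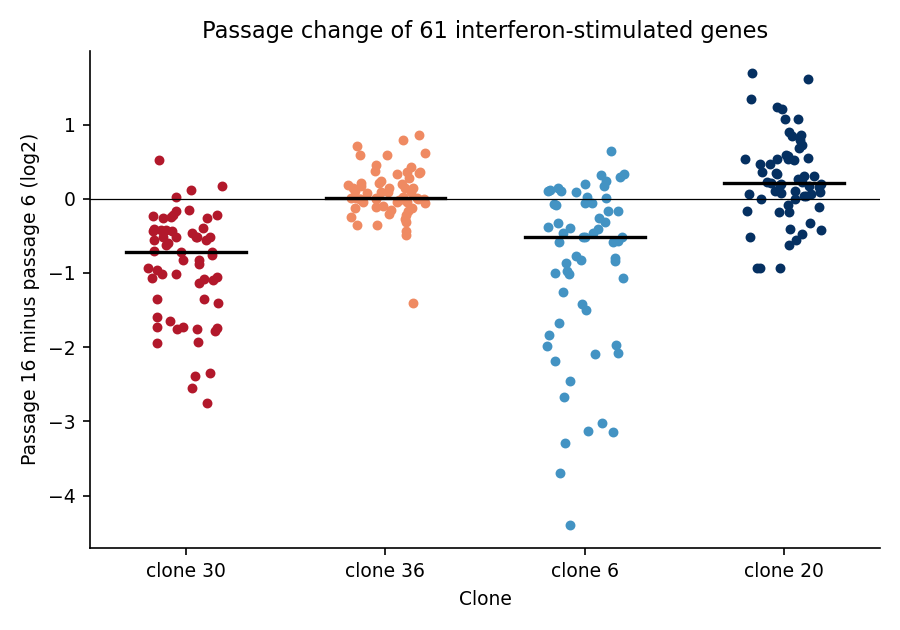
Change from P6 to P16 (vertical axis, log2) of the 61 tested interferon-stimulated genes in each clone, one point per gene, with a black bar at the median. The medians are -0.72 in clone 30, 0.01 in clone 36, -0.52 in clone 6 and 0.21 in clone 20.

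By limma with Benjamini-Hochberg adjustment over 12283 names, the passage change differed between the sets for 0 names (0%), and 389 names had an unadjusted p under 0.05. No adjusted p was below 1. edgeR's quasi-likelihood test also gave 0 (295 unadjusted) and DESeq2 gave 2 (107 unadjusted), *Ahnak* and *Egr1*, neither of them in an interferon list. The unadjusted count in limma depended on the clones: without clone 6 it was 1514, with a lowest adjusted p of 0.34, without clone 20 it was 1685, with a lowest adjusted p of 0.292, without clone 30 it was 171 and without clone 36 it was 215, and 0 names were called in each of these limma fits. The median interaction of the 61 interferon-stimulated genes was -0.164 with all clones, -0.587 without clone 6 and 0.209 without clone 20. In limma *Ahnak* and *Egr1* had interactions of 0.91 ± 0.26 (SE) and -1.69 ± 0.70, with an adjusted p of 1 for each. Within the interferon-high clones no name changed with passage by limma (0%, 218 unadjusted), edgeR (148 unadjusted) or DESeq2 (52 unadjusted). The interferon-stimulated genes had a mean change in these clones with a median of -0.316 and 58 of 61 lower, which was -0.723 without clone 36 and 0.0144 without clone 30. With 2 clones per set and clones that moved unlike each other, a change of the list that both clones of a set share was not shown, nor was its absence. The labels do not say that the libraries come from separate cultures, so these p-values measure the spread between the sequenced samples.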

How the data were processed

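RNA of the 4 clones at P6 and P16 was sequenced (8 libraries). By the methods, libraries were made with a stranded mRNA kit from the polyA+ part of total RNA. The submitters' processing notes name TopHat2 (2.0.10), Bowtie (1.0.0), SAMtools (0.1.19), HTSeq (0.5.3p9) and DESeq2, with the build GRCm38. The strand setting of the counting is not given in the sources used here. The signal that the authors deposited is a gene's count over the size factor of its library. Whole reads were recovered from it for 100% of the values (tolerance 1e-06) and used for count tests. Samples were grouped by the clone number in the labels and the clone sets by *Ifit1* and *Ifit3*. The members and gene lists were chosen with earlier results of these data known.

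Values were set on log2(normalized count + 1), the passages of a clone averaged, and names with a mean of at least 10 kept. A name was called where the sets did not overlap and differed by at least 1. Passage changes were tested with limma 3.58.1 (trend, two-sided, threshold 0.05) on within-clone differences, with edgeR 4.0.16 and DESeq2 1.42.0 with a clone term as alternatives, in R 4.3.3. Tables were handled with Python 3.11.15 and pandas 2.3.3. Scripts were tested on simulated data. Libraries were paired by clone number, with the correlations given above. Other alternatives were pseudocounts of 0.5 and 10, no minimum, a mean of at least 100, TMM and quantile scaling, all names as deposited, each passage and Y-linked class alone, and each library or clone left out. The medians of the other lists without each clone were added after the data were seen. Named were *Ifit1* and *Ifit3*, called list members, the 10 largest differences, the 10 names most alike to *Ifit1* and *Ifit3*, names past the interaction test, signalling genes by role and Y-linked genes. Others were chosen after their values were seen, among them uncalled members of the lists, the 5 most negative names without overlap, and called names outside the lists. 1 gene that the naming rule selects is not reported here. Promoter windows and symbols were matched to RefSeq (GRCm38.p6).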

Additional observations from a re-analysis of the deposited data

Results flagged for a closer look

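In each group of 4 libraries the highest and lowest value of each named gene were compared with the nearest other value. Of 64 groups examined, 3 held a library far from the other 3. For independent values chance gives about 1 in 20, or 3.2. Each group held 2 clones at both passages and the groups share libraries, so that figure is only a rough guide. In the interferon-low set the P6 library of clone 6 stood above the others for 2 genes. *Ifi44* was at 3.70 there on the log2(normalized count + 1) scale, with the other 3 libraries at 0.00. *Bst2* was at 11.29, with the others between 9.61 and 9.69. In the interferon-high set, *Ifi27l2a* was at 6.02 in the P16 library of clone 30 and between 5.43 and 5.50 in the others.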

How the results depend on the processing

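The 41 names that were 2-fold apart without overlap became 87 with no filter on low values, 23 with a mean of at least 100, 125 at passage 6 alone, 90 at passage 16 alone, 477 in clones with Y-linked transcripts alone and 135 in those without. Leaving out a library or a clone gave between 44 and 232 (232 without clone 36, 127 without clone 6, 75 without clone 20 and 65 without P16 of clone 6). A subset of libraries overlaps less easily by construction. With a mean of at least 10 in clones 6 and 20, added after the data were seen, there were 30, 29 of them among the 41, and with all names as deposited 58. The median of the interferon-stimulated list was 1.25 and became 0.336 in clones without Y-linked transcripts alone; it was between 0.651 (without clone 30) and 1.78 (without clone 36) when a library or clone was left out. The differences of 32 named genes gave 747 values over 24 alternatives, since genes under a stricter minimum have none there. None of them changed sign. These genes were called for not overlapping, so a subset of libraries or another pseudocount could not reverse them. Of the values, 76 moved by more than the SD between clones, such as *Ifit3* from 4.72 to 2.67 and *Iigp1* from 2.70 to 1.22 with a pseudocount of 10. *Ifit1* ranged from 2.57 to 7.44. In the passage tests DESeq2 with a clone term gave 2 names for the interaction, and all other alternatives gave 0, among them the fit without the replicate block, which ignores the pairing by clone (0 names for the interaction, with 69 at an unadjusted p under 0.05, and 0 for the change within the interferon-high clones). Genes near 0 in the low set rest on few reads, so their differences depend on the pseudocount.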
